A study of Homo sapiens with 3 samples.

Results

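The epithelial keratins described here are KRT7, KRT8, KRT18, KRT19, KRT20, KRT23, KRT80, KRT15 and KRT6B. Every probe set that the platform annotation pairs with exactly 1 of these 9 genes was used, which gave 12 probe sets of 8 genes, among 54613 non-control probe sets, which cover 19775 genes. KRT6B, a keratin of stressed and wounded stratified epithelium, had no probe set under this rule and was not analysed here. The values come from HT29, an established human colorectal adenocarcinoma line. All cells had been transduced by lentivirus. The control group, 1 array, carried an empty vector, and the other group, 2 arrays, carried a miR-146a expression construct. The study asked which transcripts differ when miR-146a is expressed. Whether the 2 replicates were grown separately is not stated, so a p-value here reflects array-to-array spread that may be only technical. The control rests on its single array.

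miR-146a is a microRNA best known as a brake on innate immune signalling, where it represses adaptors of the Toll-like receptors. Its mature arms are shown because the construct is what the labels name as differing between the groups. They are given as RefSeq has them on GRCh38.p14, 5′ to 3′, with the seed (bases 2 to 8, the part that pairs with target transcripts) in capitals. The 5p arm, the arm most studied, lies at chr5:160485372-160485393 and the 3p arm at chr5:160485408-160485429, both on the plus strand.
hsa-miR-146a-5p: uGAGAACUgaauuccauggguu
hsa-miR-146a-3p: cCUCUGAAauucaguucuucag
The 2 seeds differ, so the arms recognise different sites. Whether the keratin transcripts carry such sites was not tested here.

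Keratins are the intermediate filament proteins of epithelial cells. A filament is built from pairs of 1 type I and 1 type II keratin, and it gives the cell mechanical strength through its anchorage at desmosomes and hemidesmosomes. In the intestine, KRT8 is the main type II partner, and KRT18, KRT19 and KRT20 are its type I partners. Pathologists use keratin patterns to trace the origin of carcinomas, and colorectal tumours are typically positive for KRT20 and negative for KRT7. Of the genes measured, KRT18, KRT19, KRT20, KRT23 and KRT15 are type I and KRT7, KRT8 and KRT80 are type II.

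Of the 12 keratin probe sets of HT29 cells, 4 had a mean difference from the single vector array of at least 0.1 in size on the log2 scale. KRT8, KRT18 and the brighter KRT19 probe set differed from the vector by 0.08 or less on the log2 scale. KRT20 was 1.18-fold lower and KRT23 was 1.29-fold higher, and neither passed limma, the linear model with a moderated variance fitted across all probe sets, at an adjusted p of 0.05. None of the 54613 probe sets passed it, and the smallest limma adjusted p was 0.0964. Not passing therefore says nothing particular to KRT20 or KRT23. Of the 12 probe sets, 6 read above the vector in each of the miR-146a arrays and 2 read below it in each. Over all probe sets 29.1% were higher in both and 28.9% were lower in both. No keratin probe set was 1.5-fold higher or lower in both arrays, against 0.293% and 0.485% of all probe sets. With shares this small, having none among 12 does not set the keratins apart.

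**Figure D1:**
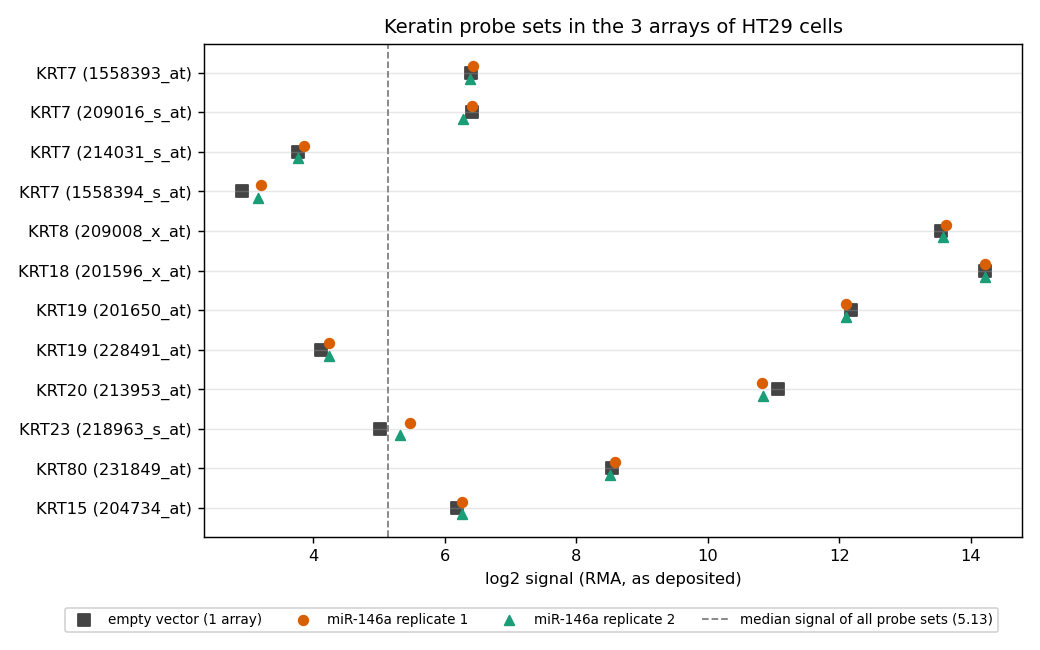
The plot gives the deposited log2 signal (horizontal axis) of each keratin probe set (rows) in the vector array (squares), miR-146a replicate 1 (circles) and replicate 2 (triangles), with the median signal of all probe sets, 5.13, as a dashed line. KRT8, KRT18, KRT19 and KRT20 have bright probe sets above 10.8 in all 3 arrays, while 3 probe sets of KRT7 and KRT19 lie below the dashed line.

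KRT8 and KRT18 form the basic filament pair of simple epithelia. The KRT8 probe set (209008_x_at) read 13.55 on the log2 scale in the vector array, 13.63 in miR-146a replicate 1 and 13.58 in replicate 2. Both miR-146a arrays were above the vector, by 0.07 and 0.02, and the replicates were 0.05 apart. The mean difference was 0.05 (SE 0.0383, limma adjusted p = 0.775). The KRT18 probe set (201596_x_at) read 14.21, 14.22 and 14.22 in the same order. Its mean difference of 0.02 (SE 0.00591, limma adjusted p = 0.481) left the pair near the vector in both miR-146a arrays.

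Both probe sets were among the brightest of the array: 0.271% of all probe sets were brighter than KRT8 and 0.033% were brighter than KRT18. Signals this close to the top of the scale, which ended at 14.45, can be compressed, and that was not tested. The ending x_at marks a probe set whose probes may also match other transcripts. RefSeq (GRCh38.p14) lists 52 genes named as KRT8 pseudogenes and 68 named as KRT18 pseudogenes, so signal from near-identical copies could enter both values. The brighter of 2 probe sets annotated to the pseudogene KRT8P12 read 7.79 in the vector, 7.79 in replicate 1 and 8.11 in replicate 2, so only replicate 2 was above the vector. The other KRT8P12 probe set read 5.29, 5.64 and 5.38, above the vector in both miR-146a arrays. KRT8 and KRT18 also overlap each other in the RefSeq gene table, on chromosome 12.

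A 95% interval shows what difference these arrays leave room for. It was taken from limma with a variance prior estimated from probe sets whose replicate values differ, as a function of signal, a setting chosen after seeing the data. The interval ran from -0.03 to 0.13 for KRT8 and from -0.06 to 0.09 for KRT18. It takes the single vector array to vary like the miR-146a replicates. In this fit the pooled spread at like signal replaced each probe set's own replicate spread, which did not enter the interval or its p-value.

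KRT19 is the smallest keratin and lacks most of the tail domain of the others. Its brighter probe set (201650_at) read 12.18 in the vector array and 12.10 in both miR-146a arrays. Both were lower, with replicate values equal to 2 decimals, and the mean difference was -0.08 (SE 0.00485, limma adjusted p = 0.127; 95% interval from -0.18 to 0.02 with the prior above). The second probe set of KRT19 (228491_at) went the other way, at 4.12 in the vector and 4.24 in both miR-146a arrays, a difference of 0.13 (limma adjusted p = 0.0973). That probe set lay below the median signal of all probe sets, and its 2 miR-146a values were exactly equal. The 2 KRT19 probe sets therefore gave no common direction.

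KRT20 is a keratin of differentiated intestinal and gastric epithelium, of the urothelial surface and of Merkel cells. Its probe set (213953_at) read 11.07 in the vector array, 10.82 in miR-146a replicate 1 and 10.84 in replicate 2. Both miR-146a arrays were below the vector, by -0.25 and -0.24, while the replicates were 0.01 apart. Among the 2323 probe sets within 1 log2 unit of its mean signal, 95% of the differences between the miR-146a replicates were 0.16 or less in size, so KRT20 differed from the vector by more than the usual spread between these replicates. In the same 2323 probe sets, 5.55% were as low or lower than KRT20 in their mean difference. The vector array stood farther from the replicates than they did from each other over all probe sets. The SD of the differences was 0.2 for replicate 1 minus vector and 0.19 for replicate 2 minus vector, against 0.14 between the replicates.

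The mean difference of KRT20 was -0.24 (miR-146a 10.83 ± 0.01, SD, n = 2; 1.18-fold lower). It did not pass limma over all probe sets (SE 0.00949, adjusted p = 0.0997), nor with a prior from probe sets with unequal replicates that ignores signal (adjusted p = 0.539). With that prior as a function of signal KRT20 passed (adjusted p = 0.00228, 95% interval from -0.36 to -0.12), and it was the only 1 of the 12 keratin probe sets to do so. This setting called 2.97% of all probe sets higher and 3.4% lower. The array's 5′ controls for ACTB and GAPDH were lower in the miR-146a arrays, by -0.18 to -0.32, while the matching 3′ controls differed by -0.03 to 0.05, and the part of this in the KRT20 value was not tested. In bulk RNA, fewer cells that make KRT20 and less KRT20 RNA per cell cannot be told apart.

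KRT23 is a type I keratin of simple epithelia, known as a gene induced by histone deacetylase inhibitors in carcinoma lines. Its probe set (218963_s_at) read 5.02 in the vector array, 5.47 in miR-146a replicate 1 and 5.32 in replicate 2. Both miR-146a arrays were above the vector, by 0.44 and 0.29, and the replicates were 0.15 apart. Of the 16474 probe sets within 1 log2 unit of its signal, 95% had replicate differences of 0.35 or less, a span that takes in replicate 2 and not replicate 1. In that window 2.86% of probe sets were as high or higher in their mean difference.

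The mean difference of KRT23 was 0.37 (miR-146a 5.39 ± 0.11, SD, n = 2; 1.29-fold higher), the highest among the 12 keratin probe sets. Limma gave it an adjusted p of 0.394 (SE 0.107), and the prior from unequal replicates gave 0.134, or 0.187 as a function of signal. With 1 probe set per gene and that prior without the signal term it passed (adjusted p = 0.0194), where 3.79% of 19775 genes were called higher and 2.18% lower. The vector value lay below the median signal of all probe sets and both miR-146a values above it, and no detection calls were used here. KRT20 and KRT23 are neighbours in the RefSeq gene table, on chromosome 17, and their probe sets differed from the vector in opposite directions.

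**Figure D2:**
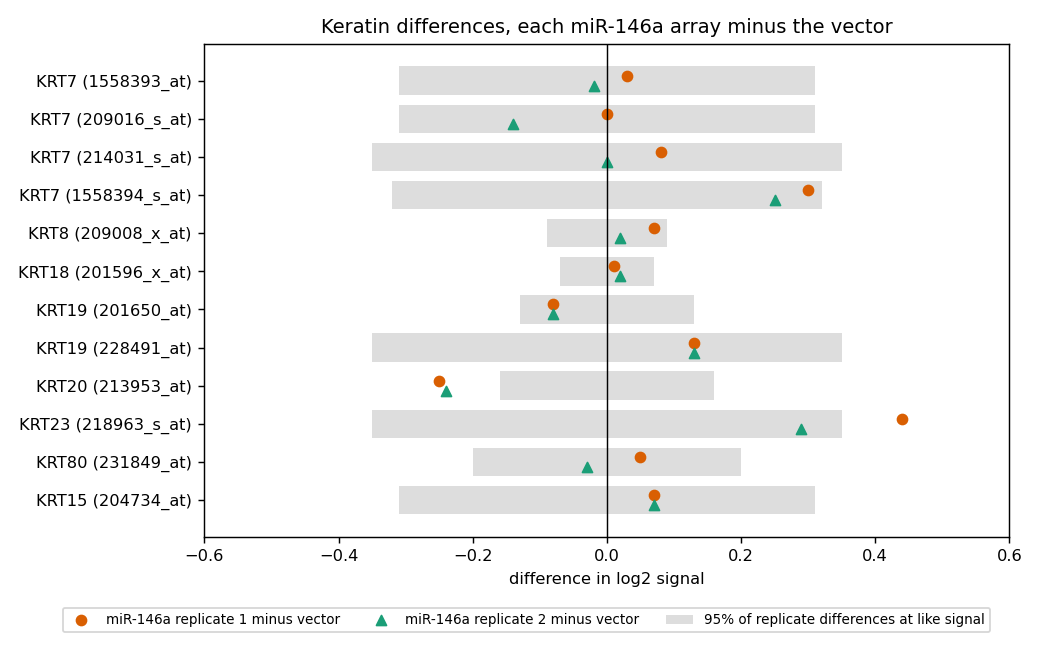
The plot gives the difference in log2 signal from the vector array (horizontal axis) for miR-146a replicate 1 (circles) and replicate 2 (triangles), by keratin probe set (rows), and grey bars span 95% of the differences between the miR-146a replicates among probe sets of like signal (within 1 log2 unit). Only KRT20 has both points outside its bar, at -0.25 and -0.24 against 0.16, and KRT23 has replicate 1 outside, at 0.44 against 0.35. The bars hold replicate spread only, and over all probe sets differences from the vector spread more widely (SD 0.2 and 0.19 against 0.14).

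KRT7 is the type II keratin of ductal and glandular epithelia and is usually absent from colorectal tumours. It had 4 probe sets, whose values fell into a brighter and a dimmer pair. The first of the brighter pair (1558393_at) read 6.40 in the vector array, 6.43 in replicate 1 and 6.38 in replicate 2, and the second (209016_s_at) read 6.42, 6.42 and 6.27. Neither moved the same way in both miR-146a arrays, and their mean differences were 0.01 and -0.07 (limma adjusted p = 0.975 and adjusted p = 0.791).

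The dimmer pair of KRT7 lay below the median signal. One (214031_s_at) read 3.77 in the vector, 3.86 in replicate 1 and 3.77 in replicate 2. The other (1558394_s_at) read 2.91, 3.21 and 3.16, so both miR-146a arrays were higher, with a mean difference of 0.28 (SE 0.0361, limma adjusted p = 0.21). It was the dimmest of the 12 keratin probe sets, with 86.6% of all probe sets brighter. A difference seen in 1 of 4 probe sets, at that signal, gives no direction for KRT7 as a gene.

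KRT80 is a type II keratin found near desmosomes in differentiating epithelial cells. Its probe set (231849_at) read 8.54 in the vector, 8.59 in replicate 1 and 8.51 in replicate 2. The vector value lay between the 2 miR-146a values, and the mean difference was 0.01 (limma adjusted p = 1.0). KRT15, a type I keratin of basal cells in stratified epithelia and of hair follicle stem cells, read 6.19 in the vector and 6.26 in both miR-146a arrays (204734_at). Its miR-146a values were exactly equal, and the difference of 0.07 had a limma SE of 0.00461 and an adjusted p of 0.129.

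By type, 4 of 6 type I probe sets were higher in both miR-146a arrays and 2 were lower in both. Of the 6 type II probe sets 2 were higher in both, 0 were lower in both and 4 were mixed or equal to the vector in 1 array. The median difference over all 12 keratin probe sets was 0.03 on the log2 scale (0.06 in replicate 1 and 0.01 in replicate 2), against 0.00 over all probe sets. The type I members ran from -0.24 to 0.37 and the type II members from -0.07 to 0.28. The mean differences of 3 probe sets, those of KRT20, KRT23 and the dimmest of KRT7, were at least 0.2 in size.

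Limma called 0 of the 12 keratin probe sets and 0 of 54613 in all (0.0% in each direction), with a smallest adjusted p of 0.0964. At an unadjusted limma p under 0.05 there were 5 of 12 keratin probe sets and 11058 of 54613 in all. Among these keratins were KRT15 and both KRT19 probe sets, with SEs of 0.00461 to 0.00485 and miR-146a values equal to 2 decimals. The design leaves 1 residual degree of freedom, and 19.3% of all probe sets had exactly equal values in the 2 miR-146a arrays, among them 2 of the keratins. With the prior from unequal replicates 0 of 12 keratins passed, against 1.38% of all probe sets higher and 1.94% lower. A robust prior called 3 of 12 keratins, namely KRT15 and, in opposite directions, both KRT19 probe sets, with adjusted p from 0.0159 to 0.043. Of all 54613 probe sets it called 2786 higher and 2900 lower.

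**Figure D3:**
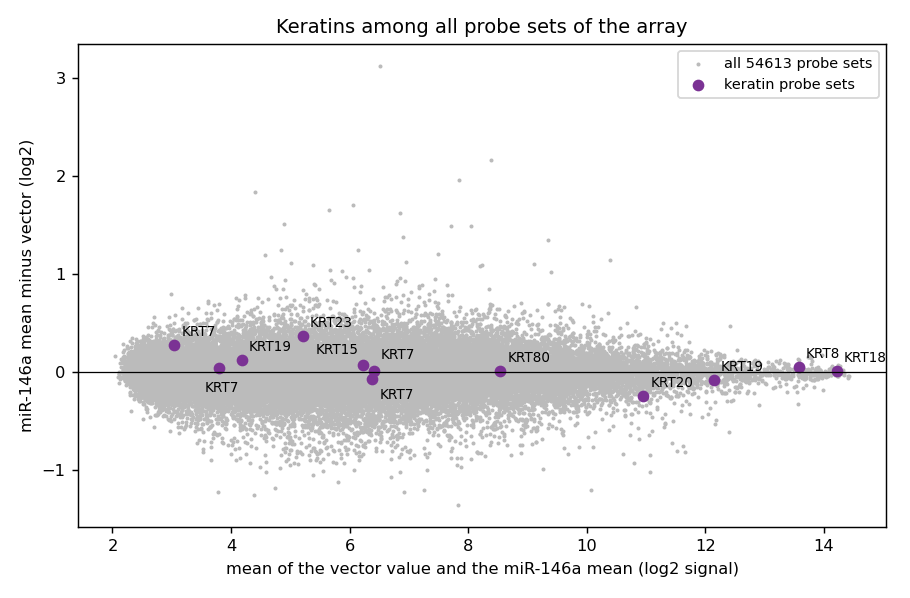
The plot sets the miR-146a mean minus the vector (vertical axis, log2) against the mean log2 signal (horizontal axis) for all 54613 probe sets (grey) and the 12 keratin probe sets (purple, with gene names). The keratins lie within the grey cloud, with KRT20 at -0.24 on its lower side and KRT23 at 0.37 on its upper side. Within 1 log2 unit of their signal, 5.55% of probe sets were as low or lower than KRT20. As high or higher than KRT23 were 2.86%.

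The tissue label was compared with marker genes. EPCAM, an adhesion protein of epithelial cells, read 12.95, 12.93 and 12.96 in the vector array and miR-146a replicates 1 and 2, and CDH1, the epithelial cadherin, read 11.33, 11.18 and 11.29. Of 13 measured markers of fibroblasts, endothelial cells and leukocytes, 5 lay above the median signal, among them a probe set of COL1A1, a fibroblast collagen, at 7.33, 7.17 and 7.17. CD14, a leukocyte marker, read 6.15, 6.41 and 6.23, and PECAM1, an endothelial marker, read 5.89, 5.89 and 5.92. DCN, a fibroblast marker, read 5.16, 5.17 and 5.10. LUM, COL3A1, CDH5, KDR and PTPRC read below 3.7 in all 3 arrays. VIM, the intermediate filament of mesenchymal cells, read 5.57, 5.49 and 5.38, lower in both miR-146a arrays. Of the 7 epithelial markers 2 were higher and 4 lower in both miR-146a arrays, and CDH17, an intestinal cadherin, was 1.46-fold lower. PHGR1, another of these 7, lay below the median signal, at 4.38, 4.31 and 4.35.

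Genes that anchor, bind or regulate keratin filaments were then counted on 1 probe set per gene, the brightest. Where other probe sets of a gene are quoted, only those above the median signal are meant. A gene quoted without them can still have dimmer ones. Over all 19775 genes, 33.1% were higher in both miR-146a arrays, 27.0% were lower in both and the median difference was 0.00. Limma called none of these genes at an adjusted p of 0.05, and none of the 19775 (0.0%; 4175 had an unadjusted p under 0.05). Calls below are therefore from the prior from unequal replicates as a function of signal, which called 4.93% of genes higher and 2.93% lower. That fit was chosen after seeing the data. It takes the single vector array, whose own variation was not measured, to vary like the miR-146a replicates. In that fit the pooled spread at like signal replaced each gene's own replicate spread. A small adjusted p there reflects the size of a difference, not how closely the gene's own replicates matched.

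In the desmosome list, the junctions to which keratins attach, 8 of 17 measured genes read below their vector value in both replicates and 2 of 17 read above it, with a median of -0.04. PKP3 and PKP4, the 2 counted as higher, had other probe sets at -0.37 and from -0.28 to 0.06. DSP, desmoplakin, which links keratins to the junction, read 11.37 in the vector and 11.10 and 11.12 in the miR-146a arrays, 1.20-fold lower (limma adjusted p = 0.112; 0.000447 with the signal-dependent prior). DSG2, the desmosomal cadherin of simple epithelia, read 11.11, 10.71 and 10.81, 1.27-fold lower (limma adjusted p = 0.284; 1.11e-06 with that prior), and its second probe set was lower by -0.66. DSC2, another desmosomal cadherin, was 1.17-fold lower, with other probe sets from -0.46 to 0.08, and PERP was 1.15-fold lower, with others from -0.31 to -0.27. The signal-dependent prior called these 4 genes of the list, all of them lower, and without the signal term DSG2 alone was called (adjusted p = 0.0307). The 5′ controls for ACTB and GAPDH, lower by -0.18 to -0.32, moved with these values, and their part in them was not tested.

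Hemidesmosome and plakin genes had no common direction: 3 of 8 measured genes read above the vector in both arrays and 3 read below it. LAMB3, a chain of laminin-332, read 9.30 in the vector and 9.05 and 8.93 in the miR-146a arrays, and was called lower with the signal-dependent prior (adjusted p = 0.00263; 0.071 without the signal term). ITGB4, the integrin chain of hemidesmosomes, was at -0.11, DST, a plakin that binds keratins at hemidesmosomes, was at -0.17, and EPPK1, epiplakin, was at 0.11. None of these 3 was called. Other probe sets above the median signal ran from -0.55 to 0.34 (DST), -0.48 to 0.05 (ITGB4) and 0.03 to 0.07 (EPPK1). PLEC and ITGA6, mixed on their brightest probe sets, had another at -0.53 and -0.84. MACF1, counted as higher, had others from -0.19 to 0.1.

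Among proteins that bind, modify or clear keratins, 10 of 18 genes read above the vector in both arrays and 7 read below it. This count too depends on the probe set. YWHAE, counted as higher, had its other at -0.4. TRADD and SQSTM1, counted as lower, had others at 0.12 and from -0.18 to 0.2. CSNK1A1, also counted as lower, had others from -0.69 to -0.09. FAM83H, which recruits casein kinase 1 to keratin filaments and affects their organisation, read 10.43 in the vector and 10.98 and 10.89 in the miR-146a arrays, 1.42-fold higher (limma adjusted p = 0.191; 1.98e-13 with the signal-dependent prior). TGM2, a transglutaminase that cross-links proteins including keratins, read 6.03, 6.78 and 6.77, 1.68-fold higher (limma adjusted p = 0.0935; 2.7e-07 with that prior), though its other probe sets above the median signal were at 0.19 to 0.28. Both were also called without the signal term. YWHAZ, a 14-3-3 adaptor protein, was 1.11-fold lower and was called with the signal-dependent prior (adjusted p = 0.0268; 0.593 without the signal term), with other probe sets from -0.46 to -0.16. SFN, the 14-3-3 protein of epithelial cells that binds keratins, was at 0.15, with other probe sets from 0.02 to 0.06, and was not called.

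Transcription factors of simple and stratified epithelium were lower in both arrays for 8 of 13 measured genes and higher for 2, with a median of -0.07. The count depends on the probe set. ELF3 and SP1, counted as lower, had other probe sets at 0.48 to 0.55 and at 0.08. KLF4, also counted as lower, had its other at -0.35. KLF5, a factor of proliferating intestinal epithelium, read 10.79 in the vector, 10.32 in replicate 1 and 10.78 in replicate 2, so replicate 1 alone carried its mean difference of -0.24. It is named because it was the only one called with the signal-dependent prior (adjusted p = 0.00335; 0.238 without the signal term; limma adjusted p = 0.778), and its other probe set was at -0.07. CDX2, an intestinal regulator, read 5.63 in the vector and 5.70 in both miR-146a arrays, and GRHL1 was at -0.22, EHF at -0.11 (other probe sets from -0.92 to -0.03) and OVOL1 at -0.09 (its other at -0.22), none of them called. In the enterocyte list, 4 of 14 genes were higher and 4 were lower in both arrays. CA2, a carbonic anhydrase of the colonic surface, read 5.86 in the vector and 5.14 and 5.27 in the miR-146a arrays, 1.58-fold lower (limma adjusted p = 0.211; 0.000239 with that prior). DPP4, a brush border peptidase, read 9.50, 8.95 and 9.24, 1.33-fold lower, with other probe sets from -0.85 to -0.82, and was also called; both calls held without the signal term. CEACAM1, a surface adhesion protein, was called higher, at 0.23 (adjusted p = 0.0207; 0.272 without the signal term), with other probe sets from -0.06 to 0.17, and GUCA2A, guanylin, was at 0.20 and was not called.

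The other keratins, 36 genes, were mostly dim, and 6 of them lay above the median signal. Of the 36, 15 were higher in both miR-146a arrays and 7 were lower, with a median of 0.04. KRT5, the type II keratin of basal cells, read 5.34 in the vector and 5.10 and 5.15 in the miR-146a arrays, a difference of -0.22. KRT73 was at 0.21, KRT83 at 0.19 and KRT75 at 0.06, and none of the 36 was called with the signal-dependent prior. Without the signal term, KRT31, a hair keratin below the median signal, was called lower at -0.41 (adjusted p = 0.0074), and it is named because it was the only one. Of the other intermediate filament genes, 5 of 15 were higher and 3 were lower in both arrays. LMNA, the A-type nuclear lamin, was at 0.15 with other probe sets from 0.01 to 0.28, LMNB2, a B-type lamin, at 0.17 and BFSP1, a lens filament protein, at 0.20, and none was called.

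**Figure D4:**
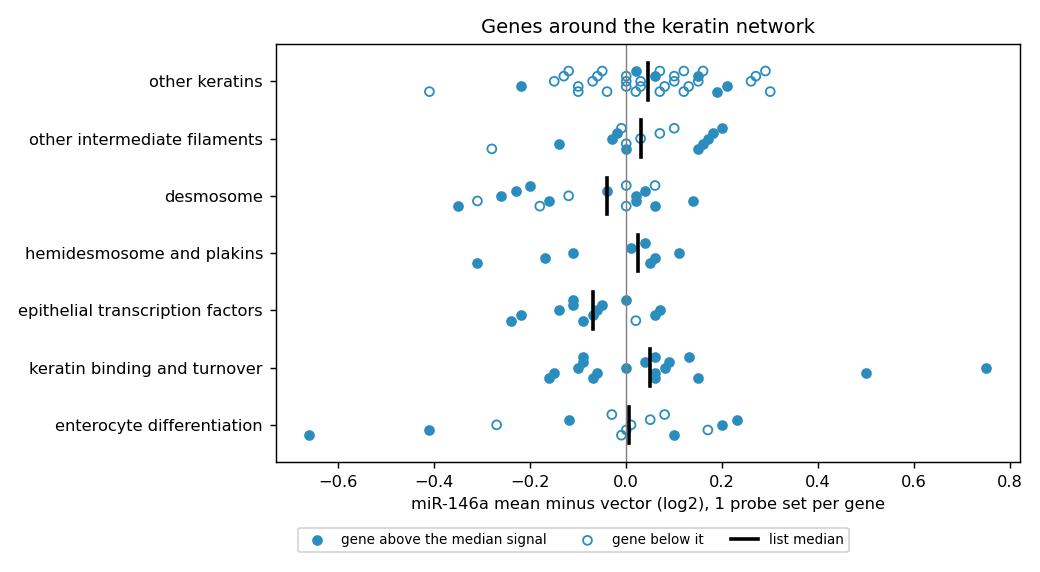
The plot gives the miR-146a mean minus the vector (horizontal axis, log2) for each gene of 7 lists (rows), with 1 probe set per gene, filled where the mean signal was above the median of all probe sets, and black bars at the list medians. List medians run from -0.07 to 0.05, and TGM2 (0.75), FAM83H (0.50) and CA2 (-0.66) lie farthest from 0.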

How the data were processed

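The deposited table holds log2 values of 3 Affymetrix arrays; the authors made them with RMA per the submitters' processing notes, from biotin-labelled cRNA per the labels' protocols. No RMA version is stated in the labels. RMA equalises the distributions of the arrays (medians 5.13, 5.14 and 5.12) and summarises probes by median polish. The number of arrays limits the precision. After 62 control probe sets were left out, 54613 remained, and the platform annotation names 1 gene for 41091 of them, several for 1801 and no gene here for 11721. Arrays were grouped by their titles. Differences are miR-146a mean minus vector, SDs are of the 2 miR-146a arrays, and a probe set called bright or dim is so by its array signal, which does not measure the abundance of one transcript against another. All probe sets were tested with limma 3.58.1 (R 4.3.3; lmFit and eBayes, two-sided, Benjamini-Hochberg over all probe sets, threshold 0.05) without a filter, so that each keratin kept its test. An exact permutation of 2 arrays against 1 cannot go below p = 0.33. Genes of the lists used their brightest probe set, and up to 4 per list above the median signal were named by the smaller of their 2 array differences; KLF5, KRT31 and the quoted markers were picked with their values in view. The members and lists were chosen with earlier results of these data known. Tested on simulated data of 54613 probe sets with no tied values, limma recovered 100% of 200 probe sets changed by 1 and 52.5% of those changed by 0.5, with 5 and 3 false calls. The simulated probe sets all shared 1 spread, unlike the deposited values. These rates therefore check the code and do not measure what limma could detect in these arrays. Alternatives were filters, 1 probe set per gene, further normalization, other variance priors and leaving out a replicate. Sequences and neighbours come from RefSeq tables; no protein sequences were used here. Figures were drawn with matplotlib 3.10.9.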

Additional observations from a re-analysis of the deposited data

How the results depend on the processing

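Across single keratin probe sets, 101 of 110 values from tested alternatives kept their direction and side of the threshold, 6 newly passed it and 3 reversed: KRT7 (1558393_at) was at -0.003 with cyclic loess, and KRT80 at -0.008 with quantile normalization and -0.005 with cyclic loess. Filters, 1 probe set per gene and other priors do not change a difference, so only quantile and cyclic loess normalization could reverse a direction. Leaving out a replicate, a value with no test, kept the direction in 20 of 24 cases. It could not turn a probe set that was on the same side of the vector in both arrays. Without replicate 1, KRT7 (1558393_at) turned to -0.017 and KRT80 to -0.033, and in 2 cases, both KRT7 probe sets, the difference was exactly 0. KRT20 ran from -0.25 to -0.224 over all settings (adjusted p from 0.00188 to 0.539) and KRT23 from 0.295 to 0.444 (adjusted p from 0.0194 to 0.502). Against 0 calls in each direction with limma, the robust prior called 2786 probe sets higher and 2900 lower (2 and 1 of them keratins), and the prior from unequal replicates 755 and 1061 (0 keratins). Chosen after seeing the data, that prior with an intensity trend called 1621 and 1856 (1 keratin lower, KRT20); with 1 probe set per gene it called 750 and 431 (1 keratin higher, KRT23), and with the trend as well 974 and 580 (1 keratin lower, KRT20). These priors treat tied replicates differently; the cause of each change was not tested. With a filter at percentile 70 only 5 keratin probe sets were left and 2 were higher in both arrays. Leaving out a miR-146a replicate gave 6 to 9 keratin probe sets above the vector and 2 to 5 below it, with 5 below without replicate 1; their median difference ran from 0.009 to 0.062. No keratin probe set was 1.5-fold apart under any setting with a count by size. No paired analysis was possible because the vector has 1 array and the groups share fewer than 2 replicate numbers. Signal over background limits the dim probe sets of KRT7, KRT19 and KRT23, for which no detection calls were used.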
